A study of Rattus norvegicus with 9 samples.

Results

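Rat bone marrow mesenchymal stem cells (MSCs) held in Medium gels were compared with those held in Slow gels, gene by gene over the whole deposited count table. The comparison used 6 of the 9 libraries of the series, Medium 1 to 3 and Slow 1 to 3 as their sample titles name them, and the table listed 33539 genes. Both groups came from bone marrow and spent 48 hours in the material that the series title calls SA hydrogel. They differed in the labelled rate of stress relaxation, which was medium in the Medium group and slow in the Slow group. The 3 Fast libraries, from the gel labelled as fast, entered the statistical model for the estimate of spread and are quoted only where stated. Growth medium was the same in all groups, low-glucose DMEM with 10% fetal bovine serum and 1% penicillin and streptomycin, and the labels used here name no drug and no engineered allele.

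Stress relaxation is the decay of force in a material that is held at a fixed deformation. Cells can pull a quickly relaxing gel into a new shape, whereas a slowly relaxing gel stays closer to an elastic solid. MSCs are adherent stromal cells that can become bone, cartilage or fat cells. They also build collagen-rich matrix and release cytokines, chemokines and prostaglandins that act on immune and stromal cells.

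Polyadenylated RNA was sequenced, and each library held between 14128980 and 15779328 counts. Levels are given as CPM, a gene's counts for each 1e6 counts of its library, scaled by TMM factors. A low-count filter left 14406 genes, and a gene is called changed where the adjusted p of edgeR's quasi-likelihood test was under 0.05. Log2 differences are Medium minus Slow, each with its standard error (SE) from that test. Means are given with their SD over 3 libraries. Nothing in the labels says that the 3 libraries of a group came from separate cultures or animals, so the p-values measure the spread between these libraries, which may be technical.

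The stromal identity of the cells was visible in both groups. Thy1, a surface antigen of MSCs, averaged 909 ± 16 CPM in Medium and 904 ± 1.73 CPM in Slow, and Cd44, the hyaluronan receptor, averaged 861 ± 18.9 CPM in Medium and 1137 ± 4.42 CPM in Slow. The 27 tested marker genes of myeloid cells were also counted, with Ptprc, the pan-leukocyte antigen CD45, at 32.1 ± 2.86 CPM in Medium and 35.2 ± 1.22 CPM in Slow and Adgre1, the macrophage antigen F4/80, at 406 ± 11.1 CPM in Medium and 292 ± 1.67 CPM in Slow. Summed over the whole list, myeloid markers reached 2362.4, 2355.1 and 2368.2 CPM in Medium, against 2136.2, 2080.0 and 2053.9 CPM in Slow. Summed stromal markers reached 7004.2, 6939.2 and 6884.2 CPM in Medium, against 7936.7, 7916.2 and 7870.2 CPM in Slow. Neither pair of sums overlapped, which gave an exact permutation p of 0.1 in each case, the smallest that 3 against 3 libraries can give. Most of the 10 library measures compared reached this p. Among them was the share of counts from ribosomal protein genes, 2.40% in Medium and 2.28% in Slow. That of each library's 10 most counted genes, 15.4% in Medium and 14.7% in Slow, was another. In bulk RNA, fewer cells of a type and less RNA per cell cannot be told apart. In Slow 3 a total of 965 genes had counts that none of the other 8 libraries had, and in each of the other 5 compared libraries 126 to 205 genes did. Only 12 of the 965 had more than 5 counts in Slow 3.

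In Medium gels 683 genes were higher and 802 were lower than in Slow gels, 1485 in all or 10.3% of the genes tested. Those called higher made up 4.74% and those called lower 5.57% of the tested genes. Most differences were small. The median size of a called log2 difference was 0.30, 1191 of the called genes differed by less than 1.5-fold, and 101 differed by at least 2-fold, of which 58 were higher and 43 lower. Of the called genes, 1476 had no overlap between the libraries of Medium and Slow and 9 had some. Among all tested genes 29.5% had no such overlap. The called share grew with the level of the gene, when genes were split by mean count into 5 groups of equal size, from 2.39% in the lowest to 23.9% in the highest group, where 227 calls were higher and 462 lower in Medium. Most genes named here come from 43 gene lists, whose 957 distinct tested members hold more abundant genes than the table at large. In that highest group, 51.2% of the 420 list genes were called, and 19.3% of the 2460 other genes were. Without any 1 of the 6 libraries, between 1011 and 1059 genes were called, and no gene called with all libraries changed sign. A change of sign could hardly occur, since 1476 of these genes had no overlap between the groups.

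**Figure D1:**
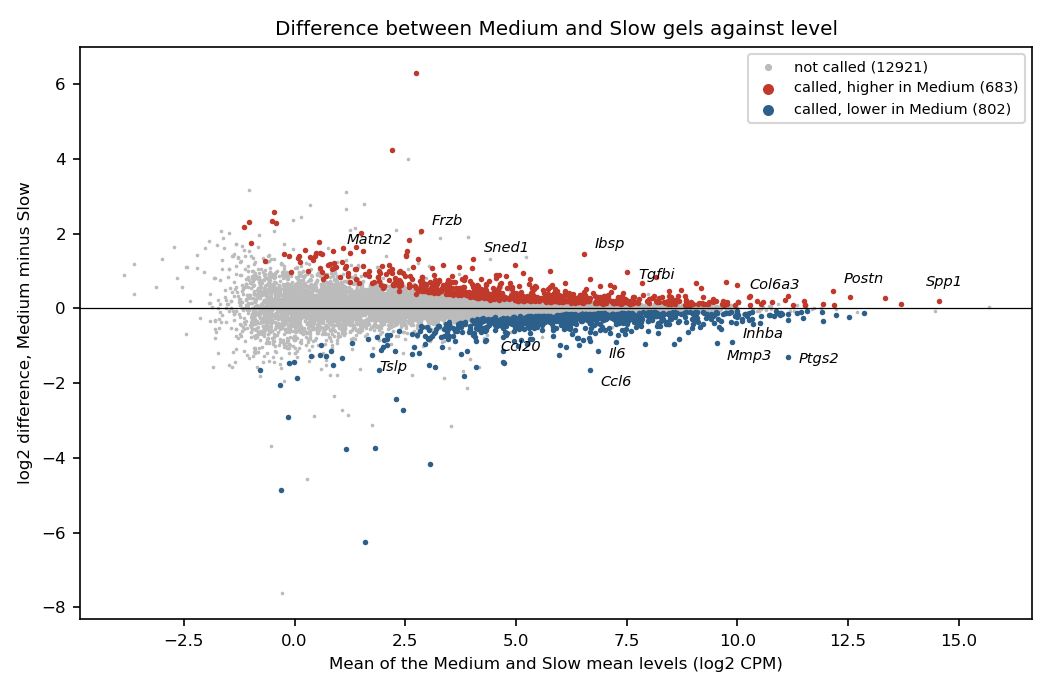
log2 difference between Medium and Slow (vertical axis) against the mean level of the 2 groups (horizontal axis, log2 CPM), with a point per tested gene. Red points (683) were called higher and blue points (802) lower in Medium, and grey points were not called. Called genes at high levels lie close to 0, with Ptgs2, Ccl6, Il6, Mmp3 and Inhba standing low and Ibsp, Frzb, Sned1 and Col6a3 standing high.

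**Figure D2:**
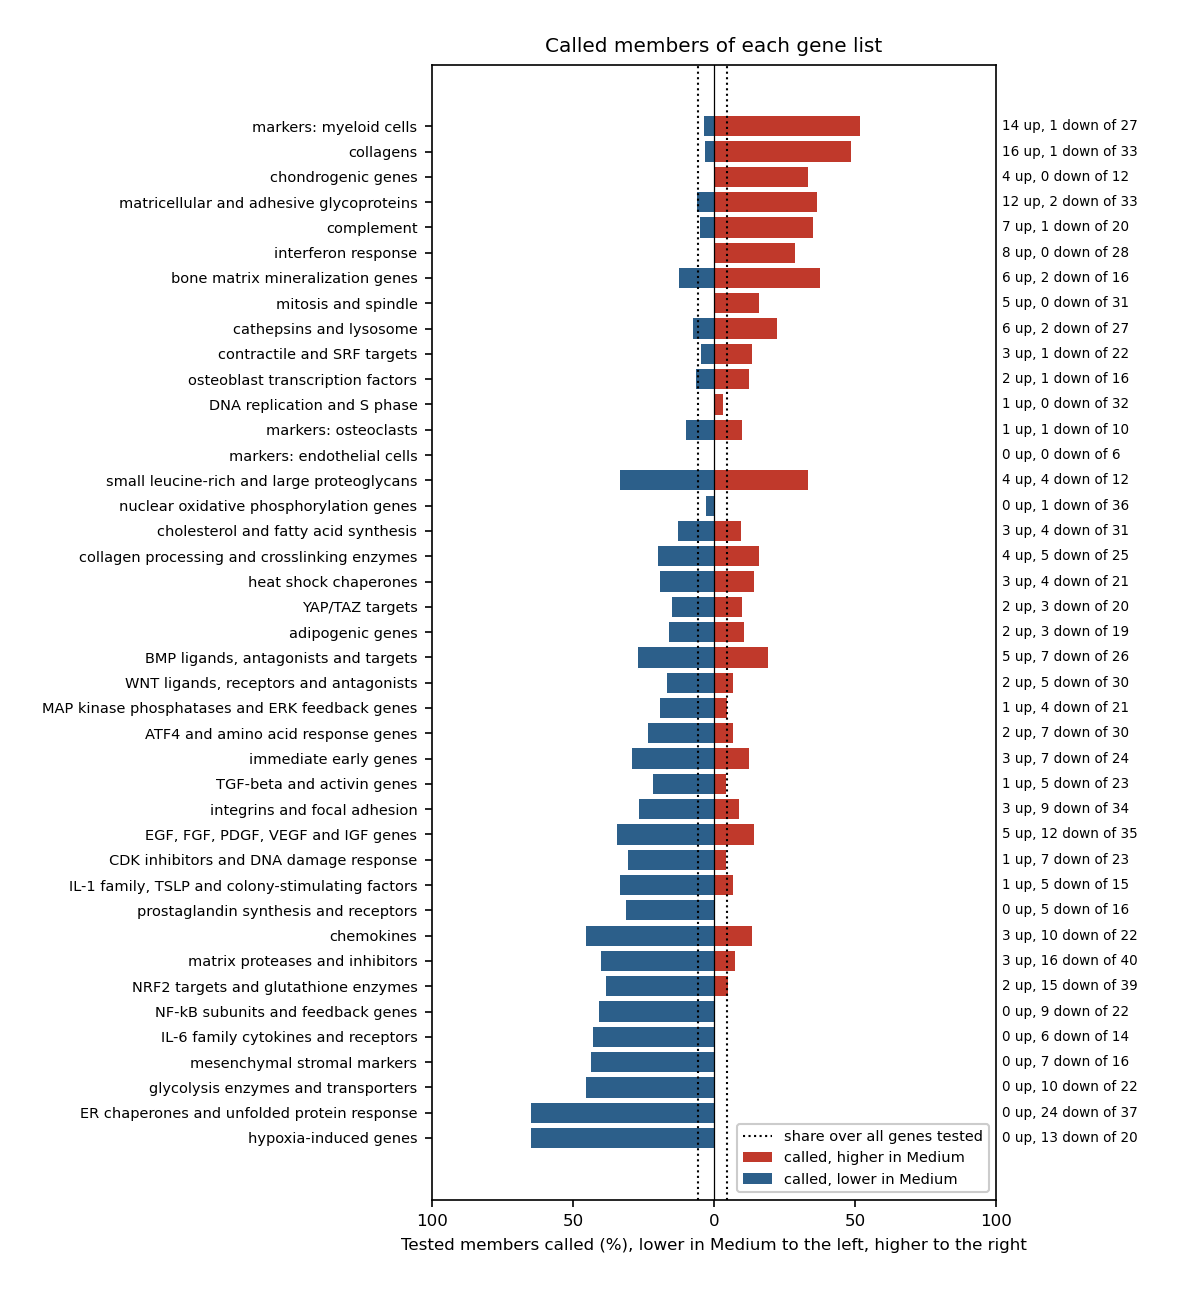
Share of each gene list's tested members that was called (horizontal axis, percent), higher in Medium to the right in red and lower to the left in blue, for lists with at least 5 tested members. Dotted lines mark the shares over all tested genes, 4.74% and 5.57%, and the counts stand at the right edge. Hypoxia-induced genes and ER chaperones reach furthest to the left, and myeloid markers and collagens reach furthest to the right.

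Many inflammatory genes were lower in Medium gels. Over the lists of prostaglandin genes, IL-6 family genes, chemokines, IL-1 family with colony-stimulating factors, and NF-kB genes, 35 of 89 tested members were called lower and 4 higher, and the median log2 difference was -0.16, against 0.0036 over all tested genes. The pooling of these 5 lists was chosen after their values were seen. The genes of prostaglandin release were among the most changed. Ptgs2, the inducible cyclooxygenase that makes the precursor of prostaglandins, stood at 1319, 1328 and 1306 CPM in Medium, against 3295, 3201 and 3194 CPM in Slow, and no other tested gene had a smaller p (log2 difference -1.29 ± 0.033 SE, edgeR adjusted p = 1.62e-11). Pla2g4a, the cytosolic phospholipase that frees arachidonic acid for it, stood at 73.1, 71.7 and 71.2 CPM in Medium, against 139.7, 121 and 133 CPM in Slow (log2 difference -0.87 ± 0.058 SE, edgeR adjusted p = 2.34e-07). Ptges, the terminal synthase of prostaglandin E2, reached 54.4, 51.3 and 59.3 CPM in Medium, against 76.9, 83.8 and 79.2 CPM in Slow (log2 difference -0.54 ± 0.057 SE, edgeR adjusted p = 1.79e-05). Medium and Slow libraries did not overlap for any of these enzymes. Ptgs1, the constitutive cyclooxygenase (-0.28 ± 0.036), and Abcc4, a transporter that exports prostaglandins (-0.38 ± 0.067), were called lower as well. These made 5 of 16 tested members called lower and 0 called higher, with a list median of -0.18. The prostaglandin E2 receptors Ptger1, Ptger2, Ptger3 and Ptger4 were not called, with log2 differences between -0.26 and 0.26.

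The IL-6 family, whose cytokines signal through the shared receptor gp130, had 6 of 14 tested members called lower and 0 higher, with a median of -0.078. Its ligands carried the larger differences. Il6, encoding the founding member interleukin 6, stood at 74.3, 70.8 and 69.8 CPM in Medium, against 162, 153 and 164 CPM in Slow (log2 difference -1.15 ± 0.061 SE, edgeR adjusted p = 2e-08). Lif, leukemia inhibitory factor, stood at 106, 105 and 110.5 CPM in Medium, against 196, 200.2 and 206 CPM in Slow (log2 difference -0.91 ± 0.042 SE, edgeR adjusted p = 4.51e-09). Il11, a cytokine of stromal cells and fibroblasts, stood at 24.5, 24.4 and 25.6 CPM in Medium, against 42.9, 46.6 and 44.1 CPM in Slow (log2 difference -0.84 ± 0.067 SE, edgeR adjusted p = 1.03e-06). All 3 ligands were lower in each Medium library than in any Slow library. Clcf1 (-0.24 ± 0.037) and Osm (-0.31 ± 0.09), further ligands of the family, and Il6st, which encodes gp130 itself (-0.10 ± 0.03), were also called lower. The calls of Osm and Il6st were lost under 10 and 9 of the 15 alternative settings. Stat3, the transcription factor downstream of gp130, was at -0.052 ± 0.032, and its feedback inhibitor Socs3 at 0.14 ± 0.053, neither of them called.

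Among 22 tested chemokines, the secreted proteins that attract leukocytes, 10 were called lower and 3 higher in Medium, with a median of -0.24. Ccl6, a macrophage-attracting chemokine of rodents, stood at 47.7, 49.6 and 51.1 CPM in Medium, against 154, 154 and 155 CPM in Slow (log2 difference -1.64 ± 0.049 SE, edgeR adjusted p = 5.85e-11). Ccl20, the ligand of the receptor CCR6, stood at 35.1, 35.9 and 40.98 CPM in Medium, against 93.8, 83.3 and 87.1 CPM in Slow (log2 difference -1.24 ± 0.065 SE, edgeR adjusted p = 2e-08). Cxcl1, a neutrophil-attracting chemokine, stood at 198, 196 and 200.1 CPM in Medium, against 309, 295 and 307 CPM in Slow (log2 difference -0.62 ± 0.034 SE, edgeR adjusted p = 2.86e-08). For each of these the Slow libraries lay above all Medium libraries. Ccl2, the main monocyte attractant, averaged 412 ± 3.61 CPM in Medium and 592 ± 16.9 CPM in Slow (-0.52 ± 0.034), and Cx3cl1, fractalkine, averaged 10.1 ± 0.606 CPM in Medium and 15.4 ± 0.854 CPM in Slow (-0.61 ± 0.093). Ccl7, Cxcl3, Cxcl14, Cxcl16 and Cxcl2 were called lower with log2 differences between -0.42 and -0.33. The chemokines called higher were Pf4 (0.49 ± 0.031), Ccl12 (0.35 ± 0.082) and Cxcl13 (0.34 ± 0.036), the last a B cell attractant. Cxcl12, the stem cell niche chemokine of marrow stroma, averaged 185 ± 2.62 CPM in Medium and 190.4 ± 3.69 CPM in Slow and was not called (-0.044 ± 0.032, edgeR adjusted p = 0.454). In the deposited coordinates Ccl2, Ccl7, Ccl12 and Ccl6 lie along chromosome 10 and Cxcl2, Cxcl1 and Cxcl3 along chromosome 14. Reads of related neighbours may have been assigned to either copy, since the treatment of multiply mapped reads is not given in the sources used here. Ccl12 moved the other way from its neighbours, and its libraries stood at 28.4, 28.8 and 29.7 CPM in Medium, against 25.6, 20.2 and 22.3 CPM in Slow.

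The list of IL-1 family members, Tslp and colony-stimulating factors had 5 of 15 tested members called lower and 1 higher, with a median of -0.19. Tslp, an epithelial and stromal cytokine that acts on dendritic cells, stood at 4.29, 4.27 and 4.23 CPM in Medium, against 12.3, 11.9 and 12.5 CPM in Slow (log2 difference -1.51 ± 0.15 SE, edgeR adjusted p = 1.11e-05). Il1a, interleukin 1 alpha, stood at 41.6, 44.2 and 41.6 CPM in Medium, against 73.5, 68.5 and 70.99 CPM in Slow (log2 difference -0.74 ± 0.064 SE, edgeR adjusted p = 2.06e-06). Both were lower in every Medium library. Csf3, granulocyte colony-stimulating factor (-0.44 ± 0.054), Csf1, the macrophage growth factor (-0.26 ± 0.025), and Il1r1, the signalling receptor of interleukin 1 (-0.19 ± 0.04), were called lower. Il1b, interleukin 1 beta, was the member called higher, at 176, 177 and 176 CPM in Medium, against 162, 142 and 150.4 CPM in Slow (log2 difference 0.22 ± 0.049 SE, edgeR adjusted p = 0.00866), a call lost without Slow 2 (edgeR adjusted p 0.0503). Csf2 (-0.47 ± 0.37) and Il33 (-0.51 ± 0.45) were not called.

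NF-kB is the transcription factor family that inflammatory signals release from its inhibitors, and many of its inhibitors are its own targets. Of 22 tested NF-kB subunits, feedback genes and other regulators, 9 were called lower and 0 higher, with a median of -0.16. All of these calls fell on members other than the subunits. Birc3, an inhibitor of apoptosis, stood at 24.7, 25.2 and 24.00 CPM in Medium, against 35.4, 38.6 and 38.8 CPM in Slow (log2 difference -0.61 ± 0.071 SE, edgeR adjusted p = 4.71e-05). Tnfaip3, which encodes the ubiquitin-editing inhibitor A20, stood at 26.7, 24.6 and 25.3 CPM in Medium, against 33.6, 36.6 and 32.6 CPM in Slow (log2 difference -0.43 ± 0.068 SE, edgeR adjusted p = 0.000731). Nfkbia, which encodes the inhibitor IkB alpha, stood at 88.1, 88.99 and 85.4 CPM in Medium, against 105, 100.3 and 101 CPM in Slow (log2 difference -0.23 ± 0.04 SE, edgeR adjusted p = 0.00186). Tnip3, Nfkbib, Traf2, Tnip1, Zc3h12a and Nfkbiz were called lower with log2 differences between -0.41 and -0.16. None of the subunit genes Rela, Relb, Rel, Nfkb1 and Nfkb2 was called, with log2 differences between -0.44 and -0.081. These were all negative, and whether subunits differ from the other members was not tested. The count of NF-kB genes called lower was 5 without Medium 1, Medium 2 or Slow 1 and 7 without Medium 3, Slow 2 or Slow 3.

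**Figure D3:**
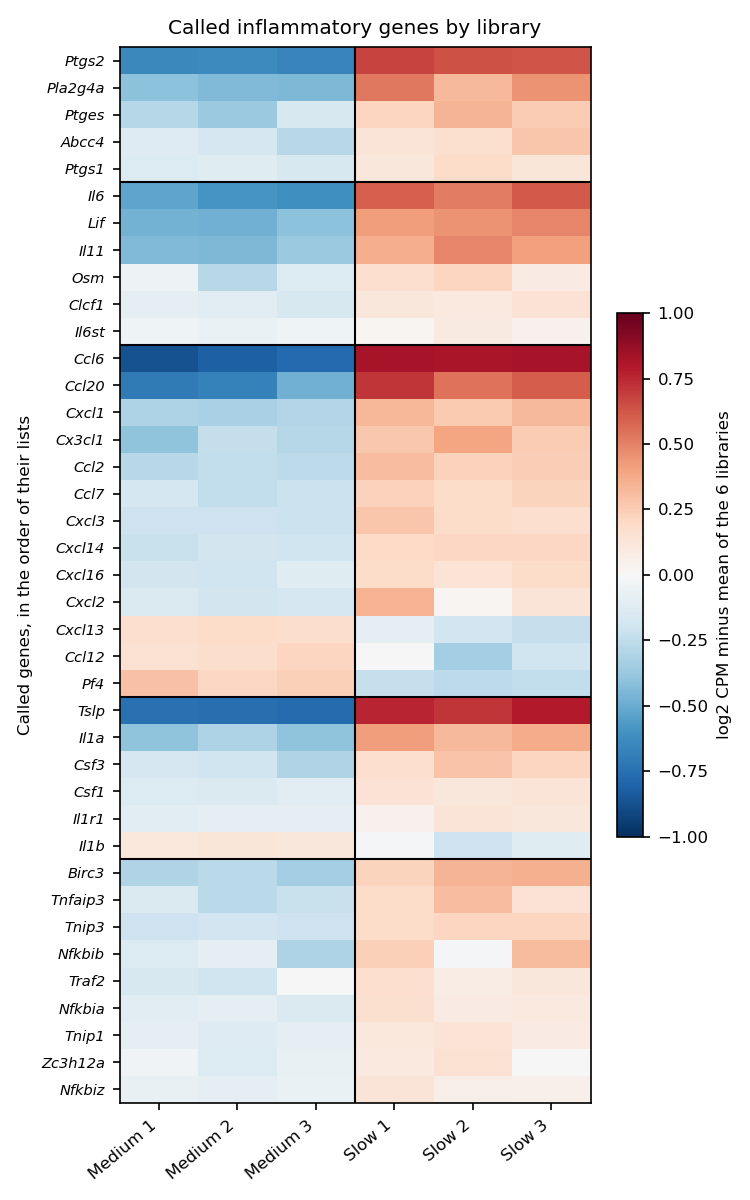
Level of each called gene of the 5 inflammatory lists in the 6 libraries, as log2 CPM minus the gene's mean over these libraries (colour, limited to 1 on either side), with black lines between the lists. Most rows are blue in Medium 1 to 3 and red in Slow 1 to 3, and Il1b, Cxcl13, Ccl12 and Pf4 show the opposite order.

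The promoters of these genes were searched for the kappa B motif, GGG and TTTCC with any 2 bases between them, the letters that NF-kB binds, on both strands of 250 bases before to 50 bases after the gene start (RefSeq, build GRCr8, matched by symbol). It was present in 13 of the 69 promoters found for the 5 inflammatory lists (18.8%) and in 7 of the 27 promoters of members called lower (25.9%). It was present in 1.53% of all 33469 promoters of this length and in 1.74% of the 9478 found for tested genes. The 7 were those of Ccl20, Cxcl1, Cxcl2, Il6, Nfkbia, Nfkbiz and Tnfaip3. Ccl9, Cxcl6, Il1rn, Nfkb1, Nfkb2 and Rel also held the letters and were not called. The lists were chosen to hold inflammatory and NF-kB feedback genes, so their excess over all promoters does not bear on Medium against Slow. The AP-1 motif TGANTCA was present in 13 of the 69 promoters (18.8%), in 7.33% of all promoters and in 4.96% of those of tested genes. TGACGTCA, the cyclic AMP response element, was present in 1 of 69, that of Il6, in 1.83% of all and in 3.18% of those of tested genes. The Ptgs2 promoter window held no match to the kappa B letters. A match is a description of letters and shows no binding. Shown here are 3 promoters of genes called lower, chosen because they hold a match, with the matching bases in capitals. They are those of Il6 (chr4:5894526-5894825, minus strand), Cxcl1 (chr14:17479272-17479571, minus strand, with 2 matches) and Ccl20 (chr9:91836909-91837208, plus strand), each written along the strand of its gene.
Il6: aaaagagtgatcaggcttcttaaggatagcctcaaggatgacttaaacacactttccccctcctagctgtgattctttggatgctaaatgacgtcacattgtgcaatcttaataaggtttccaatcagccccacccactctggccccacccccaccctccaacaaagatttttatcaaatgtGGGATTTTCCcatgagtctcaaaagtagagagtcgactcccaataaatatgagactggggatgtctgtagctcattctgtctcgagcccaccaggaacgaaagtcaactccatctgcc
Cxcl1: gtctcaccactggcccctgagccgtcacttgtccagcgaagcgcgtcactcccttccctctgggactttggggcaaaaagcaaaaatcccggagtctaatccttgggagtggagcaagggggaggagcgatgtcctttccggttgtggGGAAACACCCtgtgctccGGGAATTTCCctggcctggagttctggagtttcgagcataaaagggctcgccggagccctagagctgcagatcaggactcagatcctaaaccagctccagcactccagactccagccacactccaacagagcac
Ccl20: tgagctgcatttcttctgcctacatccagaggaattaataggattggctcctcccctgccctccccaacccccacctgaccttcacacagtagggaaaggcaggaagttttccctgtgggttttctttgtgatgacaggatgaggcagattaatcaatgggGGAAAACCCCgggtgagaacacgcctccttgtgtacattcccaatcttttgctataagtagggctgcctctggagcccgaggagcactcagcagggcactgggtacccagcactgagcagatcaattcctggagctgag

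Most genes of the endoplasmic reticulum (ER) list were lower in Medium gels, with 24 of 37 tested members of the chaperone and unfolded protein response list called lower, 0 called higher and a median of -0.21. This response is the programme by which cells add folding capacity when unfolded proteins build up in the ER, and its sensors are encoded by Ern1, Atf6 and Eif2ak3. Hspa5, encoding the chaperone BiP, stood at 643, 634 and 645 CPM in Medium, against 910.1, 891 and 901 CPM in Slow (log2 difference -0.49 ± 0.031 SE, edgeR adjusted p = 1.01e-07). Hyou1, an Hsp70-like ER chaperone, stood at 249, 239.8 and 247 CPM in Medium, against 342, 344 and 330.5 CPM in Slow (log2 difference -0.47 ± 0.032 SE, edgeR adjusted p = 2.53e-07). Hsp90b1, encoding GRP94, stood at 702, 695 and 699.8 CPM in Medium, against 894, 877 and 891 CPM in Slow (log2 difference -0.34 ± 0.023 SE, edgeR adjusted p = 2.13e-07). For all 3 chaperones every Medium library lay below every Slow library. Calr and Canx, the lectin chaperones of glycoproteins, were at -0.28 ± 0.028 and -0.26 ± 0.027. The disulfide isomerases Pdia3, Pdia4, Pdia6 and P4hb were called lower with log2 differences between -0.26 and -0.18. Their oxidases were lower by more, Ero1l by -0.43 ± 0.03 and Ero1lb by -0.38 ± 0.091. Dnajb9 (-0.36 ± 0.1), Sdf2l1 (-0.44 ± 0.089), Manf (-0.31 ± 0.037) and Creld2 (-0.35 ± 0.061), all known to be induced by ER stress, were also called lower. Among the sensors Atf6 (-0.25 ± 0.046) and Ern1 (-0.27 ± 0.067) were called lower, and Eif2ak3, which encodes PERK, was not (-0.15 ± 0.064). Neither Xbp1 (-0.11 ± 0.046) nor Herpud1 (-0.12 ± 0.054) was called. The widest value on the other side belonged to Pdia5 (0.38 ± 0.19), which was not called.

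The ER stress element, CCAAT and CCACG with any 9 bases between them, through which ATF6 acts together with NF-Y, was present in 7 of the 26 ER list promoters found (26.9%) and in 6 of the 14 of members called lower (42.9%). It was present in 22 of all 33469 promoters (0.0657%) and in 14 of the 9478 promoters of tested genes (0.148%). The 6 were those of Calr, Canx, Creld2, Dnajc3, Hsp90b1 and Hspa5, and Xbp1 held it without being called. The list was chosen for genes of this response, so its excess over all promoters does not bear on Medium against Slow. The related letters TGACGTGG were in 1 of 26 promoters, that of Hyou1, in 0.595% of all and in 0.928% of those of tested genes. Shown are 3 promoters of genes called lower, chosen because they hold the element, which is in capitals. They are those of Hspa5 (chr3:38452766-38453065, plus strand), Hsp90b1 (chr7:23012244-23012543, minus strand, with 2 matches) and Calr (chr19:40213117-40213416, plus strand). The Calr match lies in the far end of the window from the start.
Hspa5: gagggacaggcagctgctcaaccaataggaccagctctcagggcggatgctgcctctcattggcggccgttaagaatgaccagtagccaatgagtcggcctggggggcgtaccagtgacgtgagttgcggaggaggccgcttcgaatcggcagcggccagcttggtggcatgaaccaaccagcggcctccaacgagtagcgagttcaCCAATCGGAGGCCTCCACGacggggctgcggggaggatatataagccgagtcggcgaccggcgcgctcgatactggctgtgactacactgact
Hsp90b1: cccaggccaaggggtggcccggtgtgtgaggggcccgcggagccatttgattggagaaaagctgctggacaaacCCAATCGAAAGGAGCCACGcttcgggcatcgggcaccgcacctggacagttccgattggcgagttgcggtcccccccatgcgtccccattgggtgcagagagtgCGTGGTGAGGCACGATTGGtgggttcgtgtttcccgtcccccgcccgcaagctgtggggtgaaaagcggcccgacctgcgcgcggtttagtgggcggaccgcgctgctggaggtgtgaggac
Calr: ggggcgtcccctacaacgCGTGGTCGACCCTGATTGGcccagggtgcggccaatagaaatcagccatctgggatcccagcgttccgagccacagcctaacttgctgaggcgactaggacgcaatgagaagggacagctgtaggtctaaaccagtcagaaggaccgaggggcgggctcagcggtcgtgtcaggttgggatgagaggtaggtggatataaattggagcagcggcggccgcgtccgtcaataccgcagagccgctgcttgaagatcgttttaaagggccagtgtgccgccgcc

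Most hypoxia-induced genes and some glycolysis genes were lower in Medium gels, and few genes of the respiratory chain were called. The hypoxia list held genes known to be induced by low oxygen, together with the factor genes Hif1a and Epas1. Of its 20 tested members, 13 were called lower, Hif1a among them, and 0 higher, with a median of -0.20. Angptl4, a secreted inhibitor of lipoprotein lipase, stood at 226, 235 and 225 CPM in Medium, against 369.5, 359 and 354 CPM in Slow (log2 difference -0.66 ± 0.035 SE, edgeR adjusted p = 2.1e-08). Egln3, a prolyl hydroxylase that marks HIF-1 alpha for breakdown, stood at 55.8, 52.9 and 54.4 CPM in Medium, against 72.8, 75.4 and 74.2 CPM in Slow (log2 difference -0.45 ± 0.049 SE, edgeR adjusted p = 2.55e-05). Bnip3, a mitophagy receptor, stood at 285, 292 and 291 CPM in Medium, against 365, 335 and 357 CPM in Slow (log2 difference -0.28 ± 0.044 SE, edgeR adjusted p = 0.000597). Medium and Slow libraries were apart for each of them. Hif1a itself (-0.20 ± 0.032), Pdk1, the kinase that holds pyruvate out of the mitochondria (-0.26 ± 0.053), Kdm3a (-0.26 ± 0.042), Adm (-0.23 ± 0.068), Higd1a (-0.26 ± 0.054) and Vegfa (-0.16 ± 0.03) were called lower. The call of Adm was lost under 11 of the 15 alternative settings, among them every fit without 1 library. Ndrg1 (-0.091 ± 0.036), Bnip3l (-0.12 ± 0.04) and Epas1, which encodes HIF-2 alpha (0.13 ± 0.046), were not called.

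Of 22 tested glycolysis enzymes and transporters, 10 were called lower and 0 higher, with a median of -0.12. The transporters moved most. Slc2a1, the glucose importer GLUT1, averaged 448 ± 3.93 CPM in Medium and 551 ± 6.78 CPM in Slow (log2 difference -0.30 ± 0.028 SE, edgeR adjusted p = 5.63e-06). Slc16a3, the lactate exporter MCT4, averaged 478 ± 1.78 CPM in Medium and 592 ± 6.13 CPM in Slow (log2 difference -0.31 ± 0.065 SE, edgeR adjusted p = 0.00663). Slc16a1, encoding MCT1, was at -0.29 ± 0.036. Ldha, lactate dehydrogenase A, averaged 1689.5 ± 9.73 CPM in Medium and 1948 ± 31.1 CPM in Slow (log2 difference -0.21 ± 0.023 SE, edgeR adjusted p = 2.65e-05). Hk2, Gapdh, Pfkp, Eno1, Aldoa and Pgam1 were called lower with log2 differences between -0.20 and -0.080, with the calls of Pfkp and Pgam1 each lost under 10 of the 15 alternative settings, and Pkm (-0.068 ± 0.024) and Pgk1 (-0.023 ± 0.023) were not called. Among 36 nuclear genes of oxidative phosphorylation, 1 was called, Ndufb3 (-0.21 ± 0.061), lower in Medium, and the median was -0.001. The count of such calls was 0 without Medium 2, Medium 3, Slow 1, Slow 2 or Slow 3 and 1 without Medium 1.

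**Figure D4:**
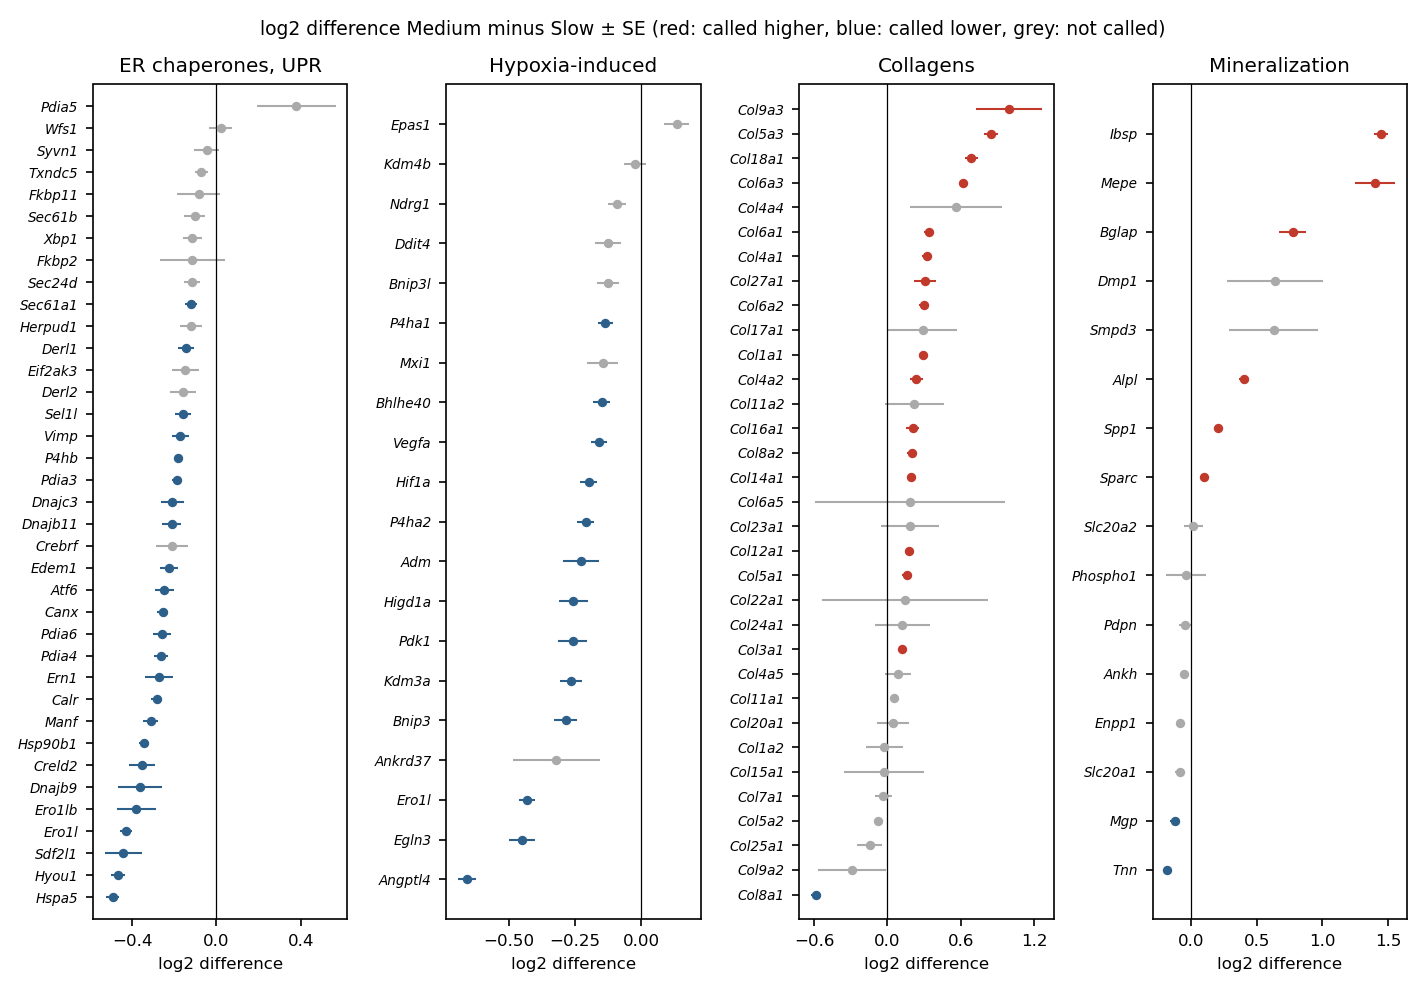
log2 difference, Medium minus Slow, with its SE (horizontal bars) for each tested member of 4 lists, with called genes in red (higher) or blue (lower) and others in grey. The ER and hypoxia panels lie mostly to the left of 0. In the collagen panel most called genes lie to the right with Col8a1 alone on the left, and in the mineralization panel Ibsp and Mepe lie furthest to the right.

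Targets of the transcription factor NRF2, which governs the response to oxidants, were listed with enzymes of glutathione metabolism and other antioxidant enzymes such as Sod2. Of 39 tested members of this list, 15 were called lower and 2 higher, with a median of -0.14. Sod2, the mitochondrial superoxide dismutase, stood at 1265, 1270.3 and 1276 CPM in Medium, against 1644, 1674 and 1669.7 CPM in Slow (log2 difference -0.39 ± 0.021 SE, edgeR adjusted p = 2.1e-08). Txnrd1, thioredoxin reductase, stood at 390.3, 401 and 397 CPM in Medium, against 511, 521 and 511 CPM in Slow (log2 difference -0.38 ± 0.027 SE, edgeR adjusted p = 3.94e-07). Slc7a11, the cystine importer that feeds glutathione synthesis, stood at 126, 126 and 138 CPM in Medium, against 180.1, 178 and 163 CPM in Slow (log2 difference -0.42 ± 0.051 SE, edgeR adjusted p = 7.18e-05). None of these overlapped between the groups. Gstm1 (-0.57 ± 0.055), Akr1b8 (-0.55 ± 0.026), Prdx1 (-0.25 ± 0.034), Prdx6 (-0.26 ± 0.048), Txn1 (-0.22 ± 0.05) and Nqo1 (-0.26 ± 0.022) were called lower. Akr1c14, an aldo-keto reductase that acts on steroids, was called higher, at 13.02, 13.8 and 15.9 CPM in Medium, against 7.48, 6.22 and 5.34 CPM in Slow (log2 difference 1.16 ± 0.11 SE, edgeR adjusted p = 6.54e-06), as was Gpx3, the secreted glutathione peroxidase (0.35 ± 0.037). The gene of NRF2 itself, Nfe2l2 (-0.11 ± 0.041), and that of its repressor, Keap1 (-0.035 ± 0.048), were not called.

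Genes of the amino acid response driven by ATF4 had 7 of 30 tested members called lower and 2 higher, with a median of -0.11. Those called lower were led by membrane transporters, Slc7a11 as above, Slc1a5 for glutamine (-0.33 ± 0.047) and Slc7a1 for arginine (-0.26 ± 0.055), and included Vldlr (-0.27 ± 0.047), Cebpb (-0.24 ± 0.051) and Shmt2 (-0.21 ± 0.042). The 2 called higher were the biosynthetic enzymes Asns (0.22 ± 0.063) and Pycr1 (0.39 ± 0.1), and their number was 0 without Medium 2, Medium 3, Slow 1 or Slow 2 and 1 without Medium 1 or Slow 3. The stress markers Atf4 (-0.13 ± 0.046), Ddit3 (-0.088 ± 0.076) and Trib3 (-0.12 ± 0.11) were not called. In the list of CDK inhibitors and DNA damage response genes 7 of 23 tested members were called lower and 1 higher, with a median of -0.12. Cdkn1a, encoding the cell cycle inhibitor p21, stood at 257, 253 and 262 CPM in Medium, against 359.9, 349.8 and 356 CPM in Slow (log2 difference -0.47 ± 0.035 SE, edgeR adjusted p = 5.25e-07). Mdm2, a ubiquitin ligase, stood at 98.9, 101 and 103 CPM in Medium, against 143, 137 and 149.9 CPM in Slow (log2 difference -0.50 ± 0.05 SE, edgeR adjusted p = 9.68e-06). Both were lower in all Medium libraries, as were Ccng1 (-0.35 ± 0.046), Zmat3 (-0.39 ± 0.076) and Gdf15 (-0.52 ± 0.075). Gadd45a, a growth arrest gene, was the member called higher (0.52 ± 0.063).

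Genes of the heat shock chaperone list were called in both directions, 3 higher and 4 lower of 21 tested, with a median of -0.021. Hspb1 was higher (0.20 ± 0.042) and Hspa4l lower (-0.81 ± 0.16). The higher count was 1 without Medium 1, Medium 2, Slow 2 or Slow 3, 2 without Slow 1 and 3 without Medium 3. The lower count was 2 without Medium 3 or Slow 3, 3 without Medium 2, Slow 1 or Slow 2 and 4 without Medium 1. Cholesterol and fatty acid synthesis had 3 members called higher and 4 lower of 31 tested, with a median of 0.002. The lower ones included Insig1, the sterol sensor that holds back cholesterol synthesis (-0.51 ± 0.037), and the fatty acid desaturase Scd2 (-0.31 ± 0.024). The higher count was 1 without Medium 1, Slow 1, Slow 2 or Slow 3 and 2 without Medium 2 or Medium 3.

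Many collagen genes were higher in Medium gels, with 16 of 33 tested members called higher and 1 lower and a median of 0.19. The higher count was 11 without Medium 1 or Slow 3, 12 without Medium 2, Medium 3 or Slow 2 and 13 without Slow 1. Col6a3, a chain of the microfibrillar collagen VI that surrounds cells, stood at 1248, 1234 and 1227 CPM in Medium, against 796, 814 and 804 CPM in Slow (log2 difference 0.62 ± 0.022 SE, edgeR adjusted p = 3.04e-10). Its partner chains Col6a1 (0.34 ± 0.041) and Col6a2 (0.30 ± 0.037) were called higher as well. Col1a1, the main chain of bone and fibrous collagen I, stood at 11381, 11218 and 11495 CPM in Medium, against 9242, 9344 and 9322 CPM in Slow (log2 difference 0.29 ± 0.029 SE, edgeR adjusted p = 1.06e-05). Every Medium library exceeded every Slow library for Col6a3 and Col1a1. Col1a2, the second chain of collagen I, was not called, at -0.026 ± 0.15. Its level was 3266 ± 403 CPM in Medium and 3326 ± 357 CPM in Slow, and its SE was wider than that of Col1a1. Of the basement membrane collagens, Col4a1 (0.32 ± 0.034), Col4a2 (0.24 ± 0.054) and Col18a1 (0.69 ± 0.052) were called higher, the last at 279.7, 287 and 286 CPM in Medium, against 171, 177 and 181 CPM in Slow. Of the fibril-forming collagens, Col5a3 (0.85 ± 0.056), Col5a1 (0.16 ± 0.044), Col3a1 (0.12 ± 0.018) and Col27a1 (0.31 ± 0.089, a call lost under 8 of the 15 alternative settings) were called higher, and Col5a2 (-0.081 ± 0.028) and Col11a1 (0.052 ± 0.031) were not called. Col12a1, Col14a1 and Col16a1, which sit on the surface of fibrils, had log2 differences between 0.18 and 0.21. The calls of Col5a1 and Col16a1 were each lost without any 1 of the 6 libraries. Col8a1, a short-chain collagen of vessel walls, was the member called lower, at 100.2, 106 and 104 CPM in Medium, against 156, 158 and 150.3 CPM in Slow (log2 difference -0.59 ± 0.041 SE, edgeR adjusted p = 2.79e-07), and its partner Col8a2 was called higher (0.20 ± 0.043).

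Enzymes that process and crosslink collagen went both ways, 4 higher and 5 lower of 25 tested, with a median of 0.001. The lysyl oxidase family was split. Loxl1 was called higher (179 ± 4.82 CPM in Medium and 147 ± 4.87 CPM in Slow, log2 difference 0.29 ± 0.049 SE, edgeR adjusted p = 0.00133), and so was Loxl3 (0.21 ± 0.043). Lox, the founding crosslinking enzyme, was called lower (1089 ± 3.99 CPM in Medium and 1205 ± 20.2 CPM in Slow, log2 difference -0.15 ± 0.033 SE, edgeR adjusted p = 0.0107), a call lost without Slow 2 (edgeR adjusted p 0.0516), and Loxl2 was not called (-0.077 ± 0.047). The hydroxylases P4ha1 (-0.13 ± 0.029), P4ha2 (-0.21 ± 0.032) and Plod2 (-0.29 ± 0.025), which are also hypoxia-induced, were called lower. Serpinh1, the collagen chaperone HSP47, was at 0.007 ± 0.033 and was not called. Adamts3, which trims the end of procollagen II, was called lower (-0.54 ± 0.063), and Pcolce, an enhancer of procollagen trimming, higher (0.11 ± 0.032). The call of Pcolce was lost without any 1 of the 6 libraries.

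Matricellular and adhesive glycoproteins had 12 of 33 tested members called higher and 2 lower, with a median of 0.12. Postn, periostin, a matrix protein of bone surfaces and tendon, stood at 5282, 5304 and 5273 CPM in Medium, against 3897, 3765 and 3831 CPM in Slow (log2 difference 0.46 ± 0.024 SE, edgeR adjusted p = 2e-08). Tgfbi, an integrin-binding protein named for its induction by TGF-beta, stood at 662, 664 and 668 CPM in Medium, against 413, 415 and 414 CPM in Slow (log2 difference 0.68 ± 0.024 SE, edgeR adjusted p = 3.04e-10). Matn2, matrilin 2, stood at 10.3, 8.21 and 9.74 CPM in Medium, against 2.64, 2.33 and 2.91 CPM in Slow (log2 difference 1.84 ± 0.15 SE, edgeR adjusted p = 1.21e-06). The 3 genes were higher in each Medium library than in any Slow library. Sned1 stood at 25.4, 25.3 and 20.1 CPM in Medium, against 7.98, 10.6 and 9.498 CPM in Slow (log2 difference 1.33 ± 0.11 SE, edgeR adjusted p = 1.03e-06), also with no overlap. Spon1 (0.89 ± 0.12), Thbs4 (0.99 ± 0.21), Tnc, which encodes tenascin C (0.17 ± 0.022), and Fbn1, fibrillin 1 (0.12 ± 0.024), were called higher. Thbs2 (-0.22 ± 0.016) and Nov, a CCN family protein (-0.63 ± 0.049), were called lower. Fn1, fibronectin, was at 0.030 ± 0.014 and was not called. The proteoglycans divided by family member, with 4 of 12 tested members higher and 4 lower. Dcn, decorin, averaged 614 ± 6.95 CPM in Medium and 802 ± 20.2 CPM in Slow (log2 difference -0.39 ± 0.042 SE, edgeR adjusted p = 2.4e-05), and the related Lum (-0.33 ± 0.036) and Fmod (-0.41 ± 0.063) were lower as well. Bgn, biglycan, averaged 3102 ± 32.7 CPM in Medium and 2719 ± 11.6 CPM in Slow (log2 difference 0.19 ± 0.03 SE, edgeR adjusted p = 0.000679), and Acan, the aggrecan of cartilage (0.19 ± 0.034), Epyc (0.39 ± 0.095) and Prg4 (0.26 ± 0.054) were higher.

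Many matrix proteases were lower in Medium gels. In the list of proteases and their inhibitors 16 of 40 tested members were called lower and 3 higher, with a median of -0.11. Mmp3, stromelysin 1, stood at 519, 500.2 and 503 CPM in Medium, against 987, 952 and 969 CPM in Slow (log2 difference -0.93 ± 0.036 SE, edgeR adjusted p = 5.29e-10). Mmp10, stromelysin 2, stood at 46.1, 39.2 and 42.8 CPM in Medium, against 94.4, 79.4 and 80.5 CPM in Slow (log2 difference -0.99 ± 0.077 SE, edgeR adjusted p = 8.21e-07). Mmp13, the collagenase of cartilage and bone, stood at 810.4, 811 and 807 CPM in Medium, against 1077, 1002 and 1022 CPM in Slow (log2 difference -0.35 ± 0.043 SE, edgeR adjusted p = 6.68e-05). In each case the libraries of Medium and Slow were apart. Mmp12 was lower too (-0.41 ± 0.037), and these 4 genes lie on chromosome 8 of the deposited coordinates, between 5522739 and 5742243. As for the chemokines, reads of the related neighbours Mmp3 and Mmp10 may have been assigned to either copy. The aggrecan-cleaving Adamts5 (-0.39 ± 0.071), with Adamts1 (-0.37 ± 0.03), Adamts7 (-0.39 ± 0.058) and Adamts15 (-0.61 ± 0.17), was called lower. In the plasminogen system Plaur, the urokinase receptor (-0.35 ± 0.032), and the inhibitors Serpine2 (-0.19 ± 0.023) and Serpinb2 (-0.40 ± 0.092) were called lower, and Plau was not (-0.23 ± 0.09). Mmp2 (-0.018 ± 0.015) and Mmp14 (0.037 ± 0.021), the membrane-anchored collagenase, were not called. Of the tissue inhibitors, Timp3 was called higher at 50.3, 49.1 and 42.99 CPM in Medium, against 22.9, 22.9 and 27.5 CPM in Slow (log2 difference 0.96 ± 0.084 SE, edgeR adjusted p = 2.64e-06), as was Timp2 (0.19 ± 0.023), and Timp1 was called lower (-0.14 ± 0.028).

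Integrins, the receptors by which cells hold matrix, had more members lower than higher in Medium gels, whereas the adhesion proteins inside the cell were not called. Of 34 tested genes of the list, 9 were called lower and 3 higher, with a median of -0.036. Itga2, the collagen-binding alpha 2 chain, stood at 1.43, 2.03 and 1.93 CPM in Medium, against 5.200, 5.96 and 5.89 CPM in Slow (log2 difference -1.66 ± 0.22 SE, edgeR adjusted p = 0.00015). Itga5, the fibronectin-binding alpha 5 chain, stood at 356, 358 and 342 CPM in Medium, against 449.8, 460.2 and 459 CPM in Slow (log2 difference -0.38 ± 0.029 SE, edgeR adjusted p = 8.13e-07). Itga7, a laminin-binding chain, stood at 43.3, 46.5 and 48.00 CPM in Medium, against 88.5, 96.7 and 94.4 CPM in Slow (log2 difference -1.02 ± 0.059 SE, edgeR adjusted p = 4.28e-08). All were lower in the Medium libraries without overlap, and Itga8, Itgb8, Itga1, Itga3, Itgav and Itgb1 were called lower with log2 differences between -0.79 and -0.14. Itga9 (1.13 ± 0.23), Itga10 (0.83 ± 0.1) and Itga11 (0.18 ± 0.036) were called higher, the last 2 being collagen-binding chains. The intracellular adhesion genes Tln1, Vcl, Zyx, Ptk2 and Ilk were not called, with log2 differences between -0.037 and 0.073.

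Several bone matrix genes were higher in Medium gels. Of 16 tested mineralization genes, 6 were called higher and 2 lower, and 9 log2 differences were positive and 7 negative, with a median of 0.058. Ibsp, bone sialoprotein, which binds and nucleates mineral, stood at 138, 134 and 137 CPM in Medium, against 50.9, 50.5 and 48.7 CPM in Slow (log2 difference 1.45 ± 0.055 SE, edgeR adjusted p = 4.54e-10). Mepe, a phosphoglycoprotein of osteocytes, stood at 9.405, 8.004 and 7.52 CPM in Medium, against 3.28, 3.24 and 2.91 CPM in Slow (log2 difference 1.40 ± 0.15 SE, edgeR adjusted p = 2.65e-05). Bglap, osteocalcin, stood at 18.5, 17.4 and 16.3 CPM in Medium, against 9.403, 9.66 and 11.5 CPM in Slow (log2 difference 0.77 ± 0.1 SE, edgeR adjusted p = 0.000183). These 3 had no overlap between the groups. Alpl, the alkaline phosphatase that frees phosphate for mineral, stood at 122, 120.0 and 125 CPM in Medium, against 91.2, 93.7 and 92.3 CPM in Slow (log2 difference 0.40 ± 0.035 SE, edgeR adjusted p = 2.11e-06). Spp1, osteopontin, was higher by less, at 25805, 25625 and 25611 CPM in Medium, against 22583, 22029 and 22108 CPM in Slow (log2 difference 0.21 ± 0.016 SE, edgeR adjusted p = 9.29e-07), and Sparc, osteonectin, by 0.096 ± 0.018. Tnn (-0.18 ± 0.024) and Mgp, an inhibitor of calcification (-0.12 ± 0.033), were called lower, and their number was 1 without Medium 1, Medium 2, Medium 3 or Slow 1 and 2 without Slow 2 or Slow 3. Spp1, Mepe, Ibsp and Dmp1 lie on chromosome 14 of the deposited coordinates, between 6673686 and 6900733, and Dmp1 was not called (0.64 ± 0.36, edgeR adjusted p = 0.326). Its counts were low, 22, 25 and 33 counts in Medium, against 17, 19 and 16 counts in Slow. Slc20a1, Enpp1 and Ankh, which move phosphate and pyrophosphate, were not called, with log2 differences between -0.085 and -0.053.

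**Figure D5:**
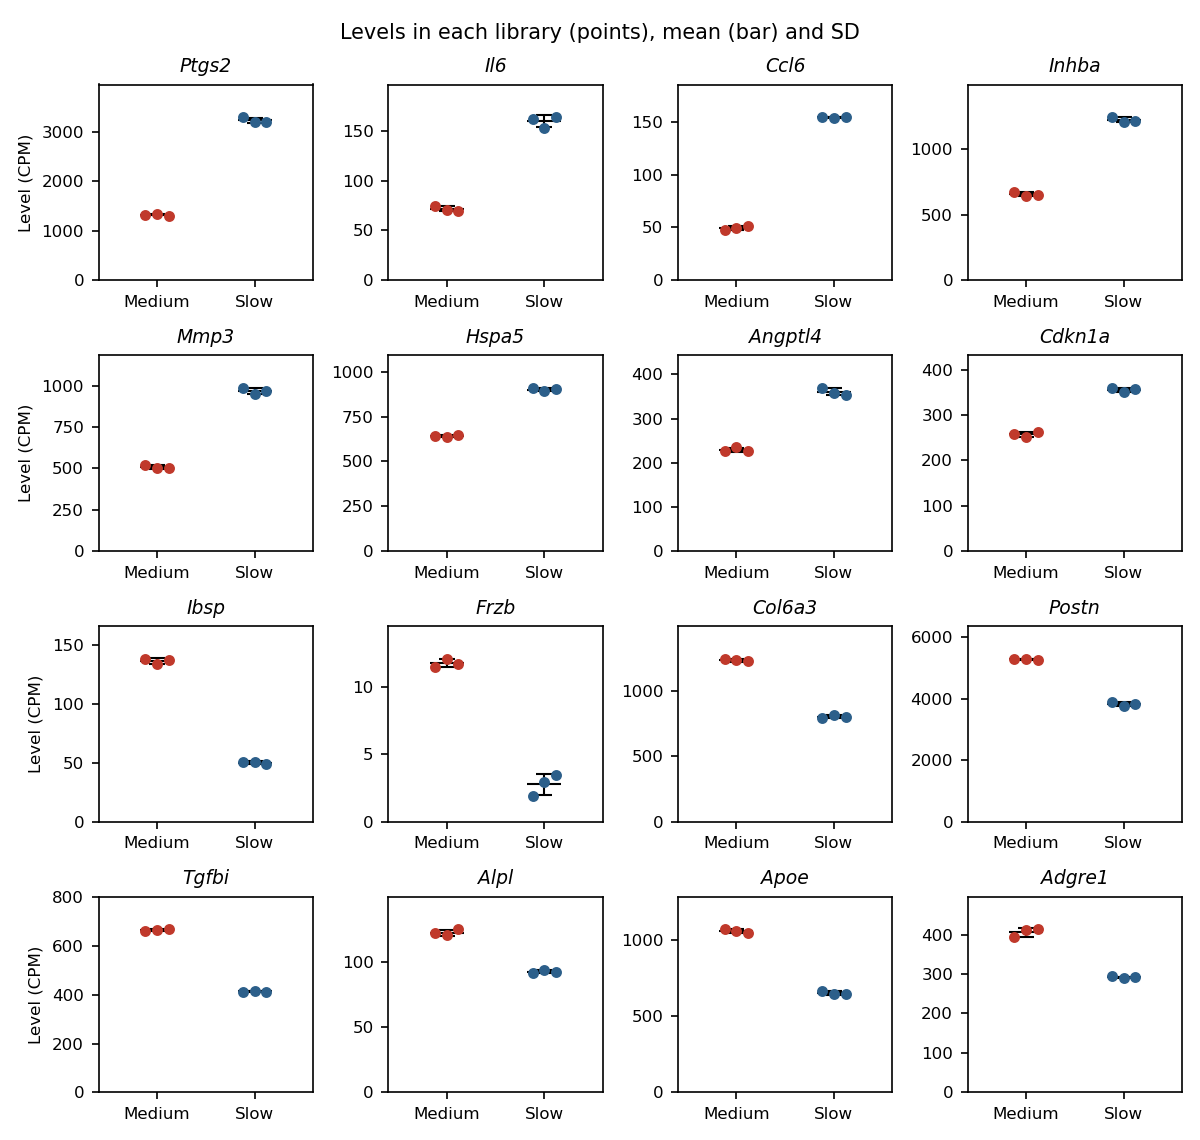
Level in CPM (vertical axis, from 0) of 16 genes in each Medium library (red, left) and each Slow library (blue, right), with the mean and SD in black. The genes were chosen for display after their values were seen. The upper 8 panels are lower in Medium and the lower 8 are higher, and in no panel do the groups overlap.

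Of 16 tested transcription factors of the osteoblast lineage, 2 were called higher and 1 lower, with a median of 0.15. Runx2, the master factor of the lineage, stood at 99.6, 99.6 and 102 CPM in Medium, against 86.7, 84.7 and 87.8 CPM in Slow (log2 difference 0.22 ± 0.051 SE, edgeR adjusted p = 0.0134). Sp7, osterix, which acts after Runx2, stood at 47.3, 45.1 and 42.1 CPM in Medium, against 35.5, 36.8 and 35.98 CPM in Slow (log2 difference 0.31 ± 0.063 SE, edgeR adjusted p = 0.00483). Both were higher in every Medium library. Dlx5 (0.62 ± 0.22) and Dlx6 (0.41 ± 0.27) were not called, and Prrx1, a factor of early mesenchyme, was called lower (-0.16 ± 0.028). The higher count was 1 without Medium 3 or Slow 2, 2 without Medium 1 or Medium 2 and 3 without Slow 1 or Slow 3. In the chondrogenic list 4 of 12 tested members were called higher and 0 lower, with a median of 0.21. Sox9, the master factor of cartilage, stood at 137, 134 and 151 CPM in Medium, against 113, 108 and 112 CPM in Slow (log2 difference 0.34 ± 0.054 SE, edgeR adjusted p = 0.000718), and the others called higher were Acan, Prg4 and Col9a3 (1.00 ± 0.27). In the adipogenic list 2 of 19 tested members were called higher and 3 lower. Pparg, the master factor of fat cells, was not called (0.13 ± 0.26). Apoe, apolipoprotein E, which macrophages also make, was called higher at 1067, 1054 and 1042 CPM in Medium, against 665, 647 and 641 CPM in Slow (log2 difference 0.70 ± 0.054 SE, edgeR adjusted p = 7.96e-07), and Plin2, a coat protein of lipid droplets, was called lower (-0.42 ± 0.029). The adipogenic higher count was 1 without Medium 2, Medium 3, Slow 1, Slow 2 or Slow 3 and 2 without Medium 1.

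Bone morphogenetic protein (BMP) genes moved in both directions. Of 26 tested ligands, antagonists and targets, 5 were called higher and 7 lower, with a median of -0.062. The ligand Bmp2 stood at 14.3, 14.7 and 13.04 CPM in Medium, against 26.1, 24.9 and 25.4 CPM in Slow (log2 difference -0.86 ± 0.079 SE, edgeR adjusted p = 3.63e-06), and Bmp6 was lower as well (-0.75 ± 0.16). The receptor Bmpr1b (-0.84 ± 0.21) and the antagonists Grem1 (-0.31 ± 0.024), Fst (-0.36 ± 0.087) and Fstl3 (-0.44 ± 0.083) were also called lower. The targets and feedback inhibitors Smad6 (0.40 ± 0.085), Id4 (0.29 ± 0.079) and Bambi (0.33 ± 0.095) were called higher, with Bmper (0.39 ± 0.076) and the procollagen protease Bmp1 (0.22 ± 0.039). Id1 (0.057 ± 0.058), Id2 (-0.11 ± 0.085) and Id3 (0.026 ± 0.036), the usual readouts of BMP signalling, were not called. The higher count was 3 without Medium 2, Medium 3, Slow 1, Slow 2 or Slow 3 and 4 without Medium 1.

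In the TGF-beta and activin list 5 of 23 tested members were called lower and 1 higher, with a median of 0.011. Inhba, the subunit of activin A, stood at 671, 645 and 653 CPM in Medium, against 1244, 1209 and 1214 CPM in Slow with no overlap (log2 difference -0.90 ± 0.031 SE, edgeR adjusted p = 2.92e-10). Ltbp1, which stores latent TGF-beta in matrix (-0.29 ± 0.044), Skil, an inhibitor of SMAD signalling (-0.31 ± 0.055), Lrrc32 (-0.40 ± 0.065) and Smad3 (-0.16 ± 0.041) were called lower. The call of Smad3 was lost under 7 of the 15 alternative settings, among them every fit without 1 library. The ligands Tgfb1 (0.066 ± 0.03), Tgfb2 (-0.032 ± 0.038) and Tgfb3 (0.056 ± 0.061) were not called. Tgfbi, given above, was the member called higher. The WNT list had 2 of 30 tested members called higher and 5 lower, with a median of 0.12. Frzb, a secreted WNT antagonist, stood at 11.4, 12.1 and 11.7 CPM in Medium, against 1.92, 2.92 and 3.47 CPM in Slow (log2 difference 2.08 ± 0.17 SE, edgeR adjusted p = 1.03e-06). Wnt5a, a ligand of the non-canonical branch, stood at 383, 362 and 368 CPM in Medium, against 582, 566 and 570.1 CPM in Slow (log2 difference -0.63 ± 0.035 SE, edgeR adjusted p = 3.1e-08). Neither gene overlapped between the groups. Axin2, a target of canonical WNT signalling, was called lower at 21.5, 22.1 and 20.6 CPM in Medium, against 29.3, 29.7 and 30.1 CPM in Slow (log2 difference -0.47 ± 0.07 SE, edgeR adjusted p = 0.000418). The lower count was 3 without Medium 3 or Slow 3 and 4 without Medium 1, Medium 2, Slow 1 or Slow 2.

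Growth factor genes had more calls lower than higher in Medium gels, 12 of 35 tested members called lower and 5 higher, with a median of -0.13. Ereg, epiregulin, a ligand of the EGF receptor, stood at 4.63, 5.22 and 2.94 CPM in Medium, against 10.8, 10.3 and 8.53 CPM in Slow (log2 difference -1.21 ± 0.2 SE, edgeR adjusted p = 0.00117). Hgf, hepatocyte growth factor, stood at 62.5, 58.3 and 60.5 CPM in Medium, against 88.8, 86.2 and 88.7 CPM in Slow (log2 difference -0.54 ± 0.052 SE, edgeR adjusted p = 6.95e-06). Both were lower in each Medium library. Pgf (-0.50 ± 0.062), Nrg1 (-0.37 ± 0.067), Fgf7 (-0.35 ± 0.027), Pdgfc (-0.27 ± 0.08) and Vegfc (-0.24 ± 0.071) were also called lower, with the calls of Pdgfc and Vegfc lost under 9 and 10 of the 15 alternative settings. Those called higher were Pdgfd (0.65 ± 0.15), the receptors Fgfr1 (0.33 ± 0.029) and Fgfr3 (0.31 ± 0.061), and the IGF-binding proteins Igfbp4 (0.53 ± 0.054) and Igfbp5 (0.25 ± 0.052). Igf1 was at 0.46 ± 0.23 and was not called.

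Early response and feedback genes of growth factor signalling were lower where they were called, with a few exceptions. Of 24 tested immediate early genes, 7 were called lower and 3 higher, with a median of -0.064. Ier3 stood at 307, 296 and 291 CPM in Medium, against 545, 528 and 511 CPM in Slow (log2 difference -0.82 ± 0.034 SE, edgeR adjusted p = 1.18e-09), and Nr4a1 (-0.33 ± 0.031), Nr4a2 (-0.48 ± 0.04), Maff (-0.42 ± 0.092), Btg2 (-0.45 ± 0.049), Klf4 (-0.23 ± 0.065) and Fosl1 (-0.29 ± 0.047) were called lower. Fos (0.025 ± 0.087), Jun (0.15 ± 0.063), Egr1 (0.005 ± 0.034) and Myc (-0.065 ± 0.06) were not called. Egr2 (0.23 ± 0.07), Egr3 (0.31 ± 0.065) and Klf10 (0.28 ± 0.074) were called higher, and their number was 1 without Medium 2, Medium 3, Slow 1 or Slow 2 and 2 without Medium 1 or Slow 3. Among 21 tested MAP kinase phosphatases and ERK feedback genes 4 were called lower and 1 higher. They were Phlda1, at 138, 137 and 135 CPM in Medium, against 212, 230.3 and 212 CPM in Slow (log2 difference -0.68 ± 0.04 SE, edgeR adjusted p = 5.87e-08), Dusp1 (-0.30 ± 0.033), Dusp5 (-0.37 ± 0.05) and Spry4 (-0.31 ± 0.046) on the lower side and Errfi1 (0.27 ± 0.029) on the higher.

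Readouts of mechanical signalling were called in both directions, in 25.0% of the YAP/TAZ list and 18.2% of the contractile list, against 10.3% of all tested genes. YAP and TAZ are transcription co-activators that enter the nucleus of spread cells. Of 20 tested YAP/TAZ targets and pathway genes, 2 were called higher and 3 lower, with a median of -0.05. Ctgf, a much-used target, averaged 1537 ± 8.4 CPM in Medium and 1429 ± 8.75 CPM in Slow (log2 difference 0.11 ± 0.02 SE, edgeR adjusted p = 0.00304), and Cyr61, another, averaged 237 ± 4.4 CPM in Medium and 270.2 ± 10.9 CPM in Slow (log2 difference -0.19 ± 0.036 SE, edgeR adjusted p = 0.00297). These moved in opposite directions. Yap1 (0.015 ± 0.046), Wwtr1, which encodes TAZ (-0.059 ± 0.055), and Amotl2 (-0.13 ± 0.041) were not called. The higher count was 1 without Medium 1, Medium 2, Medium 3, Slow 2 or Slow 3 and 2 without Slow 1. Contractile genes and targets of SRF, a factor that responds to actin assembly, had 3 of 22 tested members called higher and 1 lower, with a median of 0.084. Acta2, smooth muscle actin, stood at 97.5, 96.8 and 100.2 CPM in Medium, against 77.9, 75.3 and 75.98 CPM in Slow (log2 difference 0.36 ± 0.041 SE, edgeR adjusted p = 3.29e-05). Vim, vimentin, averaged 6576 ± 75.3 CPM in Medium and 5340.2 ± 75.4 CPM in Slow (log2 difference 0.30 ± 0.017 SE, edgeR adjusted p = 3.56e-08), and Mylk, the myosin light chain kinase, was called higher as well (0.58 ± 0.056). Tagln (0.058 ± 0.031), Cnn1 (0.089 ± 0.053) and Srf (-0.065 ± 0.056) were not called. Flna, the member called lower (-0.074 ± 0.02), lost its call under 8 of the 15 alternative settings.

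Cell division genes had few calls, all higher in Medium gels. Of 63 tested genes of DNA replication and mitosis, pooled after their values were seen, 54 had a positive log2 difference, 6 were called higher and 0 lower, and the median was 0.20. The called share was 16.1% in the mitosis list and 3.12% in the S phase list, against 10.3% of all tested genes. Mki67, the proliferation antigen, stood at 47.8, 44.5 and 46.6 CPM in Medium, against 38.7, 38.3 and 40.8 CPM in Slow (log2 difference 0.24 ± 0.056 SE, edgeR adjusted p = 0.0129). The other mitosis genes called were Foxm1 (0.47 ± 0.13), Nusap1 (0.50 ± 0.14), Espl1 (0.58 ± 0.13) and Prc1 (0.28 ± 0.07), and of 32 S phase genes Mcm10 (0.47 ± 0.13) was called. The count of mitosis genes was 2 without Medium 1 or Medium 2, 3 without Slow 1 or Slow 2 and 4 without Medium 3 or Slow 3. That of S phase genes was 0 without Medium 1, Medium 2, Slow 1, Slow 2 or Slow 3 and 1 without Medium 3. Cdk1 (0.21 ± 0.071) and Ccnb1 (0.26 ± 0.13) were not called.

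Some interferon-response and complement genes were called higher in Medium gels, in which myeloid markers were also higher. Of 28 tested interferon genes 8 were called higher and 0 lower, with a median of 0.20. Bst2, tetherin, which holds virus particles at the cell surface, stood at 2.93, 2.17 and 2.72 CPM in Medium, against 0.997, 1.102 and 1.25 CPM in Slow (log2 difference 1.22 ± 0.27 SE, edgeR adjusted p = 0.0101). Irf7, a master factor of type I interferon, stood at 14.5, 17.6 and 17.2 CPM in Medium, against 11.3, 12.3 and 9.91 CPM in Slow (log2 difference 0.56 ± 0.11 SE, edgeR adjusted p = 0.00388). Neither overlapped between the groups. Oasl2, Dhx58, Ifit2, Oasl, Stat2 and Ifi27 were called higher with log2 differences between 0.13 and 0.74, the call of Ifit2 being lost under 10 of the 15 alternative settings. The count of interferon genes was 4 without Medium 1 or Slow 3, 5 without Medium 2, Slow 1 or Slow 2 and 6 without Medium 3. Complement had 7 of 20 tested members called higher and 1 lower, with a median of 0.20, and its summed level overlapped, at 1779.9, 1778.3 and 1766.4 CPM in Medium, against 1786.5, 1761.8 and 1772.2 CPM in Slow. C1qa, C1qb and C1qc belong to both the complement and the myeloid marker list, so the calls of these lists are partly the same genes. These chains of the recognition protein C1q, which macrophages make, were all called higher. They stood at 5.59, 5.63 and 4.94 CPM in Medium, against 2.35, 2.53 and 2.43 CPM in Slow for C1qa (log2 difference 1.14 ± 0.16 SE, edgeR adjusted p = 0.000263) and were at 1.48 ± 0.34 for C1qb and 0.83 ± 0.25 for C1qc. The C1qc call was lost under 10 of the 15 alternative settings, and that of C1qb without Medium 1 (edgeR adjusted p 0.0628) or Slow 2 (edgeR adjusted p 0.0525). Serping1, the inhibitor of C1, stood at 114, 109 and 114 CPM in Medium, against 77.1, 79.1 and 80.8 CPM in Slow (log2 difference 0.51 ± 0.041 SE, edgeR adjusted p = 1.03e-06), while C3 was not called (-0.018 ± 0.038). Cd55, which protects cells from complement, was called lower (-0.40 ± 0.053). The count of complement genes called higher was 4 without Medium 1, Medium 3, Slow 1 or Slow 3 and 6 without Medium 2 or Slow 2.

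Of the 27 tested myeloid markers, 14 were called higher and 1 lower in Medium, with a median of 0.27. Adgre1 stood at 393, 412 and 413 CPM in Medium, against 294, 291 and 291 CPM in Slow (log2 difference 0.48 ± 0.031 SE, edgeR adjusted p = 1.87e-07). Csf1r, the receptor of macrophage growth factor, stood at 79.5, 79.97 and 78.7 CPM in Medium, against 58.98, 59.3 and 58.4 CPM in Slow (log2 difference 0.43 ± 0.051 SE, edgeR adjusted p = 4.71e-05). Aif1, a calcium-binding protein of macrophages, stood at 23.8, 22.7 and 24.00 CPM in Medium, against 12.04, 14.5 and 13.9 CPM in Slow (log2 difference 0.80 ± 0.084 SE, edgeR adjusted p = 1.59e-05). The Medium libraries were above the Slow libraries for all 3. Siglec1 (2.02 ± 0.26), Csf3r (1.19 ± 0.26), Ms4a7 (0.97 ± 0.16), Tyrobp (0.34 ± 0.046) and Lyz2 (0.23 ± 0.034) were also called higher. Other broad myeloid markers were not called, among them Ptprc (-0.13 ± 0.07), Itgam (-0.098 ± 0.033), Cd14 (0.050 ± 0.031) and Spi1 (0.25 ± 0.077), and Cd53 was called lower (-0.36 ± 0.065). The part of myeloid RNA in the interferon, complement, chemokine and lysosome results was not tested.

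Lymphocyte, endothelial and erythroid markers were scarce. Lymphocyte and neutrophil markers summed to 47.6, 40.6 and 42.9 CPM in Medium, against 30.8, 32.6 and 32.2 CPM in Slow (exact permutation p = 0.1), of which Cd4, which rat macrophages also carry, gave most and was called higher (34.8 ± 2.53 CPM in Medium and 23.5 ± 0.626 CPM in Slow, 0.57 ± 0.073). Ms4a1 was at 0 in all 6 libraries and Cd3e, Elane and S100a9 in 5 of 6. Endothelial markers summed to 50.1 ± 0.0875 CPM in Medium and 48.2 ± 1.25 CPM in Slow. Erythroid markers summed to 3.04 ± 0.313 CPM in Medium and 3.43 ± 0.333 CPM in Slow, and the globin genes Hbb and Hbb-b1 were at 0 in all 6. Osteoclast markers summed to 1149.5, 1170.1 and 1165.0 CPM in Medium, against 1300.1, 1289.0 and 1264.0 CPM in Slow. Of the tested members, however, 9 of 10 went the other way from this sum, with a positive log2 difference, and the list median was 0.231. Mmp9 was the negative one and was called lower (-0.29 ± 0.027), and Acp5 was called higher (0.15 ± 0.042), a call lost without any 1 of the 6 libraries. Among cathepsins and lysosomal genes 6 of 27 tested members were called higher and 2 lower, led by Ctss (0.55 ± 0.06) and Ctsc (0.42 ± 0.056), and the higher count was 3 without Medium 1, Medium 2, Slow 2 or Slow 3, 4 without Medium 3 and 6 without Slow 1. The lower count was 1 without Medium 1, Medium 2, Slow 1 or Slow 3 and 2 without Medium 3 or Slow 2.

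Of 16 tested stromal markers, 7 were called lower and 0 higher in Medium, with a median of -0.12. Nt5e, the antigen CD73, stood at 147, 148 and 143 CPM in Medium, against 189.6, 199.7 and 190.2 CPM in Slow (log2 difference -0.40 ± 0.036 SE, edgeR adjusted p = 3.42e-06). Cd44 stood at 881, 857 and 844 CPM in Medium, against 1135, 1133 and 1142 CPM in Slow (log2 difference -0.40 ± 0.034 SE, edgeR adjusted p = 1.72e-06). Angpt1, a niche factor for blood stem cells and vessels, stood at 20.9, 21.03 and 20.6 CPM in Medium, against 35.6, 33.8 and 32.2 CPM in Slow (log2 difference -0.70 ± 0.062 SE, edgeR adjusted p = 2.94e-06). None of the 3 overlapped between the groups, and Vcam1 (-0.36 ± 0.1), Alcam (-0.29 ± 0.05), Grem1 and Itgb1 were called lower, the call of Vcam1 being lost under 8 of the 15 alternative settings. Thy1 (0.008 ± 0.024), Eng, the antigen CD105 (-0.066 ± 0.046), Pdgfra (-0.084 ± 0.03), Pdgfrb (0.089 ± 0.028) and Mcam (0.099 ± 0.062) were not called.

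Several of the largest differences fell outside the lists. Among the 15 largest rises with no overlap between libraries and at least 50 mean counts, Wisp2, a CCN family protein, stood at 45.1, 44.1 and 41.7 CPM in Medium, against 19.4, 22.6 and 16.9 CPM in Slow (log2 difference 1.15 ± 0.079 SE, edgeR adjusted p = 2.53e-07). Capn6, a calpain without protease activity that stabilises microtubules, stood at 8.79, 8.14 and 8.96 CPM in Medium, against 3.06, 3.18 and 2.704 CPM in Slow (log2 difference 1.53 ± 0.16 SE, edgeR adjusted p = 1.16e-05). Limch1, an activator of non-muscle myosin II, stood at 18.1, 18.2 and 17.6 CPM in Medium, against 7.34, 8.49 and 9.08 CPM in Slow (log2 difference 1.11 ± 0.092 SE, edgeR adjusted p = 1.46e-06). Shroom2, which links actin and myosin at cell junctions (1.42 ± 0.2), Fat3, a giant cadherin (1.31 ± 0.12), Qprt, an enzyme of NAD synthesis (1.09 ± 0.14), and Cd72 (1.16 ± 0.19) were also in this group. Among the 15 largest falls, Slc6a4, the serotonin transporter, stood at 6.202, 7.53 and 5.95 CPM in Medium, against 12.5, 13.9 and 13.9 CPM in Slow (log2 difference -1.03 ± 0.14 SE, edgeR adjusted p = 0.000217). Igsf9b (-1.21 ± 0.14), Giot1 (-1.02 ± 0.098) and Tcp11 (-1.12 ± 0.23) were lower too. The most extreme values by this rule were uncertain. Ebna1bp2 was at 166, 82 and 133 counts in Medium, against 2, 6 and 12 counts in Slow (log2 difference 4.25 ± 0.89 SE, edgeR adjusted p = 0.00637). Mast4 was at 41, 3 and 18 counts in Medium, against 120, 158 and 138 counts in Slow (log2 difference -2.72 ± 0.49 SE, edgeR adjusted p = 0.002). Hnrnpc was at 102, 94 and 76 counts in Medium, against 361, 119 and 480 counts in Slow (log2 difference -1.82 ± 0.44 SE, edgeR adjusted p = 0.0153). In at least 1 group, the counts of each of these genes varied widely between libraries, and the calls of Ebna1bp2 and Hnrnpc were lost with limma-voom (adjusted p 0.125 and 0.12).

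The Fast libraries showed whether a gene's Medium level lay between those of the other gels. Comparisons with Fast and with Slow share the Medium libraries, so the values are given side by side. In Fast against Medium 33.0% of tested genes were called. Ptgs2 was at 528, 482 and 472 CPM in Fast, below its Medium level (-1.42 ± 0.034 for Fast minus Medium, edgeR adjusted p = 3.44e-13). Timp3 was at 64.5, 57.6 and 58.7 CPM in Fast, above Medium (0.34 ± 0.078, edgeR adjusted p = 0.00331). For both genes Medium therefore lay between Fast and Slow. For others it did not. Ccl20, lower in Medium than in Slow, was at 112, 102 and 105 CPM in Fast (1.51 ± 0.064, edgeR adjusted p = 1.45e-10). Spp1, higher in Medium than in Slow, was at 15088, 14531 and 14450.0 CPM in Fast, below both (-0.81 ± 0.016, edgeR adjusted p = 6.46e-14). Acan and Sox9, likewise higher in Medium, averaged 142 and 56.1 CPM in Fast (-1.62 ± 0.036 and -1.33 ± 0.057 for Fast minus Medium, edgeR adjusted p = 1.61e-13 and 1.55e-10). Hspa5, Calr and Pdia4 averaged 736, 1387 and 271 CPM in Fast, against 640.4, 987 and 199.9 CPM in Medium. Frzb averaged 12.05 CPM in Fast and 11.7 CPM in Medium, and Fast minus Medium was not called for it (edgeR adjusted p = 0.865).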

How the data were processed

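Polyadenylated RNA of 9 samples, 3 per group, was made into libraries with the QIAseq FX Single Cell RNA Library Kit and sequenced on an Illumina HiSeq2000, per the labels' protocols. The authors deposited raw read counts per gene and library, per the file headers. Bowtie 0.12.9, Cufflinks 2.1.1 and HTSeq are named in the submitters' processing notes without a role. These notes name the mouse build mm10, while the table carries Ensembl identifiers of the rat, and no source states the build of the deposited coordinates or the use of strand in counting. The 9 deposited FPKM columns and the deposited fold changes and p-values were not used.

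Library totals were 14860845, 14930493 and 14128980 counts in Medium, and 14449520, 15779328 and 14700526 counts in Slow. Genes were filtered with filterByExpr (minimum count 10, smallest group 3), which kept 14406 genes holding 99.909% of counts, and scaled with TMM factors. All 9 libraries entered 1 quasi-likelihood fit with a term per group (edgeR 4.0.16, R 4.3.3), and p-values were adjusted by the Benjamini-Hochberg method over all tested genes with a threshold of 0.05. The biological coefficient of variation was 7.441%. The procedure was tested on simulated counts. CPM is the count divided by the scaled library total, times 1e6. Summed marker levels and other library measures, 10 in all, were compared with a two-sided exact permutation test. Chi-square per degree of freedom between libraries of 1 group was 2.88 to 3.74, and all were kept separate.

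The 43 gene lists (1157 entries, 25 not found in the table), the motifs and the tests were chosen with earlier results of these data known, and lists are described by counts and medians. Named genes were the 15 largest rises and 15 largest falls among called genes with at least 50 mean counts, a proper symbol and no overlap between groups, and in each list up to 8 tested members with the smallest p. Some of these genes are not reported here. Other list members that stand for the role of their list were added, and these, the order of display and the promoters printed were chosen after their values were seen. The Ibsp promoter, examined for the AP-1 motif, and the Ptgs2 promoter, examined for the kappa B motif, held no match and are not printed. Promoters are RefSeq's, build GRCr8. Of 13590 tested symbols 9478 had one. Alternatives were RLE, upper quartile and library size scaling, DESeq2 1.42.0, limma-voom (limma 3.58.1), other filters, a replicate block, a fit of the 6 libraries alone, and each library left out in turn.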

Additional observations from a re-analysis of the deposited data

How the results depend on the processing

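Against 1485 genes called with all libraries, 1478 were called with RLE factors, 1465 with upper quartile factors, 1493 with library size only, 1365 with DESeq2, 1439 with limma-voom, 1498 with a filter of 1 CPM, 1809 with no filter beyond 1 count and 1845 with the 6 libraries alone. Leaving out 1 library gave 1011 to 1059 calls, 456 to 489 of them higher and 540 to 571 lower, and 82 to 99 of at least 2-fold. The count of at least 2-fold was 101, and 230 with no filter beyond 1 count, where 22470 genes were tested. The share of calls that were higher was 46.0%, and it was 51.7% under upper quartile and 53.6% under library size scaling, where the median over all genes moved to 0.0157 and 0.0194. None of the genes called in the main test changed sign under any of the 15 alternatives. With 1476 of them free of overlap between the groups, such a change could hardly occur.

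Same-numbered Medium and Slow libraries did not deviate together (correlations of 0.04562, -0.03125 and 0.01899), Medium 2 correlating best with Slow 1, and the labels give the numbers no meaning. With the replicate number as a block 1397 genes were called, 1346 of them in common with the fit without it.

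Of 348 called genes that the text names or the naming rule gives, 261 kept their call under all 15 alternatives and 312 under all that used every library. Calls lost under at least 8 alternatives were those of Acp5, Adm, C1qc, Col27a1, Ctsl, Egr2, Ephb2, Flna, Ifit2, Il6st, Lrp5, Mcm10, Ndufb3, Osm, Pdgfc, Pfkp, Pgam1, Plk2, Vcam1, Vcan and Vegfc. Uncalled genes near 0 changed sign when 1 library was left out, with log2 differences of -0.006 to 0.015 for Thy1, -0.003 to 0.036 for Yap1, -0.008 to 0.058 for Fos, -0.007 to 0.015 for Egr1, -0.124 to 0.058 for Col1a2, -0.005 to 0.092 for Tgfb3 and -0.004 to 0.015 for Serpinh1, and the cause was not tested. Low counts limited the test, since of 5 equal groups of genes by mean count the lowest had 2.39% called with a median size of 1.3 on the log2 scale, and the highest had 23.9% called with a median size of 0.208.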

Other observations

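The genes in this section were chosen after their values were seen, and the families were taken by symbol. Guidance genes, the ligands and receptors that steer cell and axon movement, were called in both directions, with 10 of 48 tested members higher and 8 lower in Medium and a median log2 difference of 0.053. Sema7a, a membrane-anchored semaphorin that binds integrins, stood at 88.1, 83.97 and 84.97 CPM in Medium, against 48.7, 54.98 and 55.7 CPM in Slow (log2 difference 0.69 ± 0.055 SE, edgeR adjusted p = 1.03e-06). Sema3a, a secreted repellent, stood at 9.405, 8.61 and 8.88 CPM in Medium, against 13.2, 14.3 and 11.9 CPM in Slow (log2 difference -0.55 ± 0.12 SE, edgeR adjusted p = 0.00726). Both were without overlap, in opposite directions. Epha3 (0.80 ± 0.19), Ephb2 (0.67 ± 0.19, a call lost under 10 of the 15 alternative settings) and Robo2 (0.64 ± 0.18) were called higher, and Epha2 (-0.51 ± 0.063), Efnb2 (-0.43 ± 0.081) and Nrp1 (-0.29 ± 0.043) lower. The call of Robo2 was lost under 7 of the alternative settings. Of 8 chemokine receptors 3 were called lower and 0 higher, namely Cxcr4, the receptor of Cxcl12 (-0.46 ± 0.063), and the scavenging receptors Ackr3 (-0.28 ± 0.074) and Ackr4 (-0.32 ± 0.051). Syndecans and glypicans, which carry heparan sulfate on the cell surface, had 4 of 8 members higher and 1 lower. HOX genes, also counted by symbol, had 0 of 10 tested members called higher and 0 lower. Nuclear-encoded MHC genes with RT1 symbols had 1 of 23 higher and 0 lower, and laminins with nidogens 1 of 11 higher and 3 lower. Over all tested genes 10.3% were called.

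Among single genes, Pla2g2a, a secreted phospholipase, stood at 159, 163 and 169 CPM in Medium, against 318, 317 and 318 CPM in Slow (log2 difference -0.96 ± 0.036 SE, edgeR adjusted p = 3.75e-10). Stc1, stanniocalcin 1, stood at 76.3, 73.1 and 73.4 CPM in Medium, against 132, 124 and 127 CPM in Slow (log2 difference -0.78 ± 0.043 SE, edgeR adjusted p = 2.86e-08). Cited2, a CBP and p300 binding protein that restrains HIF-1, stood at 155, 154 and 154 CPM in Medium, against 236, 238 and 228 CPM in Slow (log2 difference -0.60 ± 0.032 SE, edgeR adjusted p = 2.34e-08). All were lower in each Medium library. Thbd, thrombomodulin (-0.58 ± 0.042), Cd93 (-0.96 ± 0.061) and Icam1, the adhesion molecule of leukocyte contact (-0.40 ± 0.033), were called lower as well. Txnip, the thioredoxin-binding protein that limits glucose uptake, stood at 163, 179 and 165 CPM in Medium, against 115, 109 and 105 CPM in Slow (log2 difference 0.63 ± 0.046 SE, edgeR adjusted p = 4.72e-07). Vdr, the vitamin D receptor, stood at 57.1, 56.7 and 58.3 CPM in Medium, against 40.7, 40.3 and 40.7 CPM in Slow (log2 difference 0.50 ± 0.052 SE, edgeR adjusted p = 1.37e-05). Both were higher in each Medium library. Piezo2, a stretch-gated channel, was called higher (4.73 ± 0.154 CPM in Medium and 2.61 ± 0.286 CPM in Slow, 0.85 ± 0.2). Stab1, a scavenger receptor of tissue macrophages (0.60 ± 0.045), was called higher beside the myeloid markers, and the part of myeloid RNA in this was not tested.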
